A study of Homo sapiens with 10 samples.

Results

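The genes that make, hold, escort and cut the sterol regulatory element-binding proteins (SREBPs) were described here in PC3 cells. They comprised 9 genes, chosen by name: the SREBP genes SREBF1 and SREBF2, the retention factors INSIG1 and INSIG2, the escort SCAP, the proteases MBTPS1 and MBTPS2, and the degradation partners RNF139 and UBXN8. All 9 were found among the 62656 genes of the deposited table, and all 9 were among the 20402 genes that passed a filter on low values (a mean of at least 0.5 RPKM, library-scaled reads per kilobase of a gene). PC3 is a human prostate cancer cell line established from a bone metastasis. RNA was measured in 10 libraries, 5 from cells that received the vehicle DMSO and 5 from cells that received GW3965, a synthetic agonist of the liver X receptors (LXRs), at 1 µM for 24 h. All cultures shared the same medium and had been starved overnight before the treatment, no gene was altered in them, and the libraries stand for 1 cell line. Nothing in the sample records says that the 5 libraries of a condition came from separate cultures, so p-values measure the spread between these libraries, which may be technical.

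SREBPs are made as precursors in the membrane of the endoplasmic reticulum, where they are bound to SCAP. When membrane cholesterol is high, SCAP binds an INSIG protein and the complex stays in place. When it is low, SCAP carries the precursor in COPII vesicles to the Golgi, where the site-1 protease (MBTPS1) and then the site-2 protease (MBTPS2) release the transcription factor. SREBF1 encodes SREBP-1a and SREBP-1c, which act mainly on fatty acid synthesis, and is a textbook target gene of LXRs. SREBF2 encodes SREBP-2, which acts mainly on cholesterol synthesis and uptake, and INSIG1 is itself a target gene of SREBPs.

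The libraries held between 30429384 and 41636379 reads on annotated genes, as recovered from the deposited values, and the 7SL RNAs took 13.7 to 21.5% of them in the DMSO libraries and 12.0 to 23.2% in the GW3965 libraries. The epithelial keratin KRT19 had a mean of 149 RPKM, 4 of 5 epithelial markers had a mean of at least 0.5 RPKM and CDH1 stood at 0.285 RPKM, while the prostate luminal marker KLK3 had no read in any library. None of the 4 immune markers reached 0.5 RPKM. The LXR target genes ABCA1 and ABCG1, which encode cholesterol exporters, were higher in the libraries labelled GW3965: ABCA1 went from 3.43 ± 1.34 RPKM (SD, n = 5) in DMSO to 16.5 ± 2.37 RPKM in GW3965, and ABCG1 from 1.57 to 7.06 RPKM, with adjusted p-values of 0.00063 and 0.000124 (limma, Benjamini-Hochberg over all tested genes).

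The promoter sequences of the 2 genes that rose (SREBF1 and INSIG1) and of the other SREBP gene (SREBF2) are shown from RefSeq (GRCh38.p14), each with 250 bases before and 50 bases from the annotated start, in the direction of the gene. Capitals mark matches on either strand to the core of the sterol regulatory element (TCACCCCAC), the palindromic E-box (CACGTG) or the CCAAT box (CCAAT), and no matches overlapped.
SREBF1, chr17:17836937-17837236, minus strand: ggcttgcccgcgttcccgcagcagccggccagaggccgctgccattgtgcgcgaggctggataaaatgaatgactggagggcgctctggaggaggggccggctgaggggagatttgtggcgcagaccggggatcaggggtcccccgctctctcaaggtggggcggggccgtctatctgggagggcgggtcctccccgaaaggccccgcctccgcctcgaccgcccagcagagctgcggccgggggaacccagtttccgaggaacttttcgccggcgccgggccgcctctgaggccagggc
INSIG1, chr7:155297628-155297927, plus strand: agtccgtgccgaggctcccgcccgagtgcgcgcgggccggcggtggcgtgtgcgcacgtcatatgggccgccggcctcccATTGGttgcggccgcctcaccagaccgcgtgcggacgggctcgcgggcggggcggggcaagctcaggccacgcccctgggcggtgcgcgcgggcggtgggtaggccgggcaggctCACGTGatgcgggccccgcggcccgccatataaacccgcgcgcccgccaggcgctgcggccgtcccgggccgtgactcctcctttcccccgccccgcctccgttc
SREBF2, chr22:41832855-41833154, plus strand: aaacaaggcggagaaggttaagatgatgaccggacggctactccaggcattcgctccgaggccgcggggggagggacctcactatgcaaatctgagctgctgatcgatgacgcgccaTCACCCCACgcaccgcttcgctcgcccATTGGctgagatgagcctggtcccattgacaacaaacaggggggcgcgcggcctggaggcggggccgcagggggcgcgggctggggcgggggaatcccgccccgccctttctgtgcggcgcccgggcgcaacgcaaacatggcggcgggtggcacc
The SREBF2 window held the sterol regulatory element core from position -133 to -125 (the annotated start is position 0), and a CCAAT box on the opposite strand from -106 to -102. This core was found in 0.43% of all 35116 promoter windows of the same length. The INSIG1 window held an E-box from -55 to -50, a motif present in 7.26% of all windows, and a CCAAT box on the opposite strand from -170 to -166, a motif present in 34.6%. The SREBF1 window held none of these 3 motifs, nor AGGTCA, the half-site of the LXR response element. It covers a single start, whereas GENCODE 29 lists 23 distinct transcript starts for SREBF1. Among the other members with a window, SCAP held an E-box from -58 to -53, and INSIG2, MBTPS1 and MBTPS2 held no match to any of the motifs. The 2 half-sites with 4 bases between them that make up the canonical LXR element were found in 0.0199% of all windows and in no member's window. A match gives letters only and does not show that a factor binds there. Only exact matches were counted, so the lack of a match does not show that no factor binds.

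Both SREBP genes host a microRNA in an intron, miR-33b in SREBF1 and miR-33a in SREBF2, which are known to repress ABCA1. Their 5p arms (RefSeq, GRCh38.p14) are shown because they share a seed, bases 2 to 8, given in capitals.
hsa-miR-33b-5p, chr17:17813897-17813916, minus strand: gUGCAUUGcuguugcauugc
hsa-miR-33a-5p, chr22:41900949-41900969, plus strand: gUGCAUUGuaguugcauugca
These libraries were made from fragmented total RNA, and the annotated microRNA loci held almost no reads. MIR33B had 11 reads over the 5 DMSO libraries and 8 over the 5 GW3965 libraries, with at most 6 in a library. MIR33A had 0 and 2 reads. With so few reads, a change of either microRNA was not detectable in libraries of this kind.

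Of the 9 genes, 2 rose with GW3965, none fell and 7 did not pass the test (limma on log2(RPKM + 0.1), adjusted p below 0.05). Over all tested genes, 30 rose (0.147%) and 2 fell (0.0098%). SREBF1 stood at rank 14 and INSIG1 at rank 23 of the 20402 tested genes by p. The median log2 fold change of the 9 genes was 0.06, and that of all tested genes was 0.00337.

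The precursor gene SREBF1 was about 1.67-fold higher with GW3965. Its levels in DMSO libraries 1 to 5 were 12.9, 10.9, 11.0, 14.1 and 13.5 RPKM, and in GW3965 libraries 1 to 5 they were 22.0, 21.8, 21.4, 20.3 and 18.8 RPKM. Each of the 5 GW3965 values exceeded each of the 5 DMSO values, with 4.73 RPKM between the highest DMSO and the lowest GW3965 library. Such a separation upwards was seen in 1.35% of tested genes, and downwards in 0.49%. The mean went from 12.5 ± 1.46 to 20.9 ± 1.34 RPKM (SD, n = 5 each). This is 0.74 on the log2 scale (SE 0.084, 95% interval 0.56 to 0.93, limma adjusted p = 0.00362). An exact two-sided permutation test that enumerated every labelling gave p = 0.00794, the smallest value that 5 against 5 libraries allow. Between 2737 and 4405 reads lay behind the DMSO values and between 5011 and 7174 behind the GW3965 values. SREBF1 lies at chr17:17810399-17837002 on the minus strand (GRCh38, GENCODE 29), and 556 of its exonic bases (6.92%) overlap exons of RAI1 on the opposite strand. RAI1 had a mean of 7.29 RPKM and a log2 fold change of -0.07 (adjusted p = 0.906), and the sources used here do not say whether reads were counted by strand. The table holds 1 value per gene, so SREBP-1a and SREBP-1c transcripts cannot be told apart, nor can RNA per cell and the share of cells with the RNA.

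The other precursor gene, SREBF2, did not pass the test. Its DMSO libraries 1 to 5 held 22.7, 20.6, 23.4, 24.7 and 22.0 RPKM, and its GW3965 libraries held 23.9, 24.0, 24.4, 22.8 and 23.9 RPKM. The ranges overlapped: every GW3965 library lay above the DMSO mean, and none lay above the highest DMSO library. The means were 22.7 ± 1.53 and 23.8 ± 0.582 RPKM (SD, n = 5). The log2 fold change was 0.07 (95% interval -0.05 to 0.20, limma adjusted p = 0.872). The interval reaches from 3.42% lower to 14.5% higher, which leaves out the rise seen for SREBF1. SREBF2 lies at chr22:41833079-41907308 on the plus strand. SREBF2-AS1, its antisense gene, shares 280 exonic bases with it and had 254 reads in each condition.

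**Figure D1:**
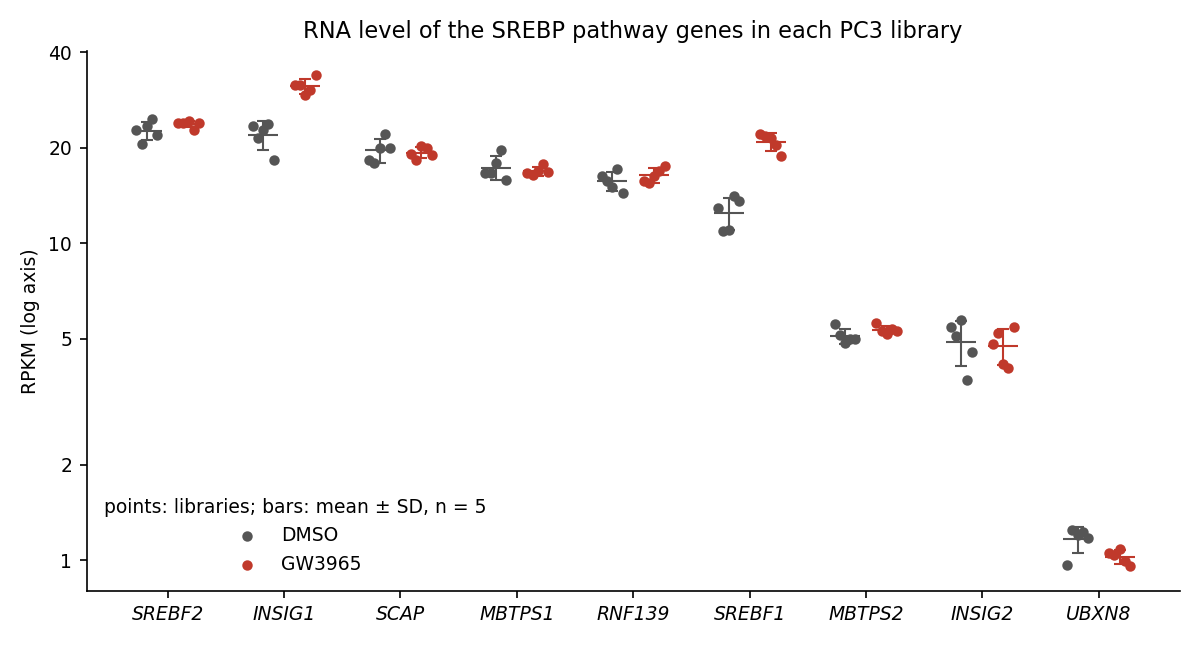
RPKM on a log axis for each of the 9 genes, ordered by their mean in DMSO, with DMSO libraries in grey and GW3965 libraries in red; points are libraries and bars are mean ± SD (n = 5). The red points of SREBF1 (18.8 to 22.0 RPKM) and INSIG1 (29.4 to 33.9 RPKM) lie above all grey points of the same gene, and the groups of the other 7 genes overlap.

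INSIG1, which retains the SCAP complex in the endoplasmic reticulum, was about 1.43-fold higher with GW3965. The DMSO libraries 1 to 5 held 23.5, 21.4, 22.8, 23.8 and 18.2 RPKM, and the GW3965 libraries held 31.5, 31.6, 29.4, 30.3 and 33.9 RPKM. The groups did not overlap, and 5.54 RPKM lay between them. The mean went from 22.0 ± 2.28 to 31.3 ± 1.68 RPKM (SD, n = 5). The log2 fold change was 0.52 (SE 0.077, 95% interval 0.35 to 0.69, limma adjusted p = 0.0312; exact permutation p = 0.00794). Between 2158 and 4609 reads per library lay behind these values. INSIG1 lies at chr7:155297776-155310235 on the plus strand, and no other annotated gene overlaps it. The call did not hold when some libraries were left out: the adjusted p was 0.0875 without DMSO library 2, 0.0739 without DMSO library 3, and 0.0854, 0.105, 0.0626, 0.0897 and 0.105 without GW3965 libraries 1 to 5. It was also lost with no filter on low values (0.0705), after quantile normalization (0.0665), in limma without the variance trend (0.0686) and with the replicate number as a block (0.18), whereas its log2 fold change kept its direction and lay between 0.45 and 0.55 in all 21 alternatives.

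INSIG2, the second retention factor, was much lower and more variable. Its DMSO libraries 1 to 5 held 5.43, 5.11, 5.71, 3.69 and 4.54 RPKM, and its GW3965 libraries held 4.83, 5.21, 4.15, 4.06 and 5.44 RPKM. The groups covered nearly the same range. The means were 4.90 ± 0.802 and 4.74 ± 0.619 RPKM (SD, n = 5). The log2 fold change was -0.04 (95% interval -0.32 to 0.24, limma adjusted p = 0.981), so a rise of up to 17.8% or a fall of up to 19.7% lies within the interval. INSIG2 lies at chr2:118088452-118110997 on the plus strand. Its coefficient of variation was 16.4% in DMSO and 13.1% in GW3965, the highest of the 9 genes, against 3.84% expected from counting reads alone.

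SCAP, which carries the precursors to the Golgi and binds cholesterol itself, ranged from 17.9 to 22.1 RPKM in DMSO and from 18.3 to 20.2 RPKM in GW3965. Its log2 fold change was -0.02 (95% interval -0.16 to 0.12, limma adjusted p = 0.979). SCAP lies at chr3:47413694-47477126 on the minus strand, and no exon of another gene overlaps its exons.

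Neither protease passed the test. MBTPS1, at chr16:84053761-84116906 on the minus strand, had 17.3 ± 1.5 RPKM in DMSO and 16.9 ± 0.544 RPKM in GW3965 (SD, n = 5). The log2 fold change of MBTPS1 was -0.03 (95% interval -0.17 to 0.11, limma adjusted p = 0.965). MBTPS2, at chrX:21839636-21885424 on the plus strand, had 5.10 ± 0.271 and 5.34 ± 0.158 RPKM (SD, n = 5). The log2 fold change of MBTPS2 was 0.07 (95% interval -0.05 to 0.19, limma adjusted p = 0.878). All 5 GW3965 libraries lay above the DMSO mean of MBTPS2, but only 1 lay above its highest DMSO library. YY2, a gene on the same strand, shares 1093 exonic bases (12.2%) with MBTPS2, had 0.612 RPKM and a log2 fold change of 0.05 (adjusted p = 0.984).

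RNF139 is a ubiquitin ligase of the endoplasmic reticulum membrane, and UBXN8 helps to tie the p97 ATPase to that membrane for protein degradation. RNF139 ranged from 14.4 to 17.1 RPKM in DMSO and from 15.4 to 17.6 RPKM in GW3965, with a log2 fold change of 0.06 (95% interval -0.07 to 0.20, limma adjusted p = 0.922). UBXN8 was the lowest of the 9 genes, with 129 to 220 reads per library. Its DMSO libraries 1 to 5 held 0.970, 1.25, 1.20, 1.23 and 1.17 RPKM, and its GW3965 libraries held 1.06, 1.04, 1.09, 0.993 and 0.959 RPKM. All GW3965 libraries but 1 lay between DMSO library 1 and the other DMSO libraries. The log2 fold change was -0.16 (95% interval -0.38 to 0.05, limma adjusted p = 0.818), while the exact permutation test gave an unadjusted p of 0.0476. Counting alone gives UBXN8 a coefficient of variation of 7.83%, against 9.67% between DMSO libraries and 4.99% between GW3965 libraries.

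**Figure D2:**
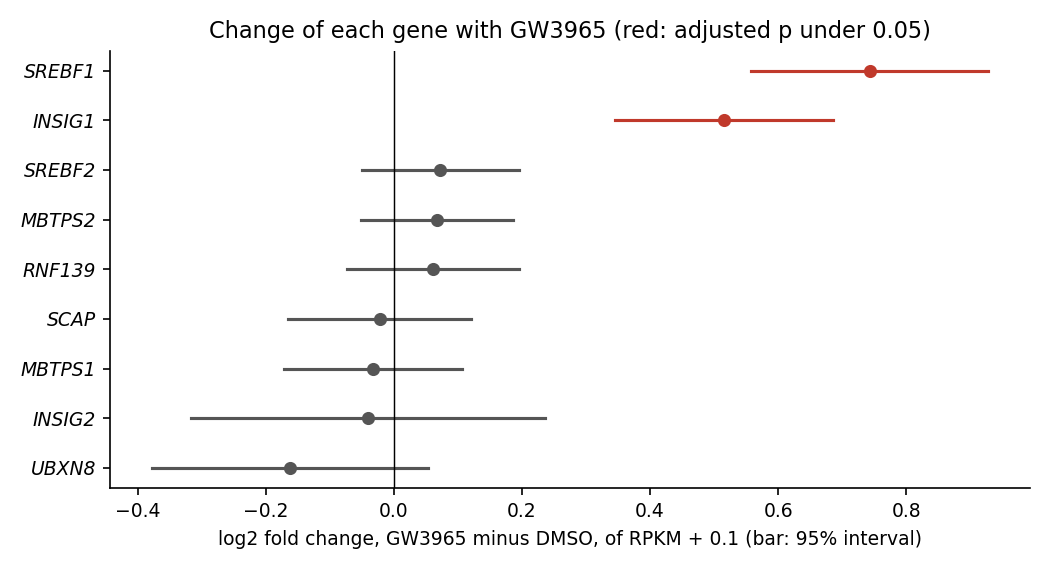
Log2 fold change of RPKM + 0.1 (GW3965 minus DMSO) for each of the 9 genes with its 95% interval from limma, in red where the adjusted p was below 0.05. The intervals of SREBF1 (0.56 to 0.93) and INSIG1 (0.35 to 0.69) lie above 0, and those of the other 7 genes include 0.

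Since RPKM is scaled by gene length, the levels were also compared between genes. Their order depends on the lengths used, which need not be those of the transcripts present. In DMSO, SREBF2 was the highest with 22.7 RPKM, followed by INSIG1 (22.0), SCAP (19.7), MBTPS1 (17.3) and RNF139 (15.7), and each of these overlapped its neighbour over the 5 libraries. SREBF1 followed at 12.5 RPKM, apart from RNF139 above it and from MBTPS2 (5.10) below it. MBTPS2 and INSIG2 (4.90) overlapped, and UBXN8 (1.16) stood apart at the end. In GW3965, INSIG1 was the highest with 31.3 RPKM, apart from SREBF2 (23.8), which in turn stood apart from SREBF1 (20.9). SREBF1 thus moved from rank 6 to rank 3, where its range overlapped that of SCAP (19.3).

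Ratios within a library, which do not depend on the scaling between libraries, addressed whether paired members moved apart. The genes were chosen with earlier results of these data known. SREBF2, INSIG2 and SCAP had log2 fold changes of 0.07, -0.04 and -0.02. Rises of ratios to them thus restate the rises of SREBF1 and INSIG1 and are no separate support for them. INSIG1 is shared by the ratios to INSIG2 and to SCAP. SREBF1 stood at 0.568, 0.530, 0.469, 0.569 and 0.617 times the RPKM of SREBF2 in DMSO libraries 1 to 5, and at 0.921, 0.909, 0.878, 0.891 and 0.786 times in the GW3965 libraries. In RPKM, SREBF1 remained the lower of both genes in every library. This order depends on the gene lengths in the deposited values, 8234 bases for SREBF1 and 7556 for SREBF2. In reads, GW3965 library 1 held 6172 for SREBF1 and 6148 for SREBF2, while SREBF1 was the lower in all other libraries. The log2 ratio rose by 0.67 (SE 0.077, exact two-sided permutation p = 0.00794, adjusted p = 0.0159 over 4 pairs, n = 5). The ratio of INSIG1 to INSIG2 was 4.33, 4.196, 3.998, 6.46 and 4.02 in the DMSO libraries and 6.54, 6.06, 7.08, 7.48 and 6.23 in the GW3965 libraries. DMSO library 4 fell among the GW3965 libraries, so that the groups overlapped. The log2 ratio rose by 0.56 (SE 0.14, exact permutation p = 0.0238, adjusted p = 0.0317, n = 5). INSIG1 to SCAP, the retention factor against its partner, went from 0.912 to 1.28 in DMSO to 1.45 to 1.79 in GW3965 with no overlap, a log2 difference of 0.54 (SE 0.10, exact permutation p = 0.00794, adjusted p = 0.0159, n = 5). MBTPS1 to MBTPS2 went from a mean log2 ratio of 1.74 ± 0.16 to 1.64 ± 0.06 (SD, n = 5), a difference of -0.10 (SE 0.08, exact permutation p = 0.262, adjusted p = 0.262).

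**Figure D3:**
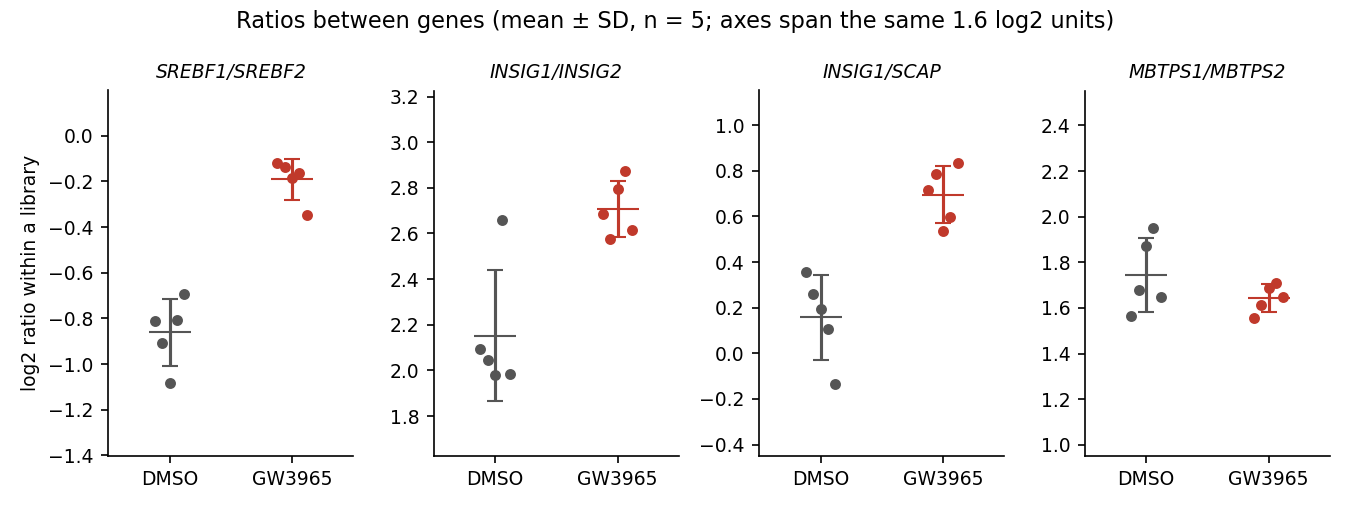
Log2 ratio of RPKM + 0.1 of paired genes within each library, in DMSO (grey) and GW3965 (red), with mean ± SD (n = 5) and axes of equal span. SREBF1/SREBF2 and INSIG1/SCAP separate by treatment, 1 DMSO library of INSIG1/INSIG2 lies among the GW3965 libraries, and MBTPS1/MBTPS2 overlaps.

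The spread between libraries was larger than counting error for 8 of the 9 genes in both conditions. For SREBF1 the coefficient of variation was 11.7% in DMSO and 6.41% in GW3965, against 1.43% from counting. For INSIG1 it was 10.4 and 5.36%, against 1.70%. Each of the 9 genes varied more between the DMSO than between the GW3965 libraries, a difference that was not tested.

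The 3 tested genes whose profile over the 10 libraries was nearest to SREBF1 were ABCG1, STK39 and TMTC1, with root-mean-square differences of 0.210, 0.217 and 0.229 between z-scored log2 values. STK39, a kinase that regulates ion cotransporters, went from 10.4 to 18.2 RPKM (log2 fold change 0.81, limma adjusted p = 0.000124), and TMTC1 from 4.96 to 7.27 RPKM (0.54, adjusted p = 0.0459). The call of TMTC1 was lost in 14 of 21 alternatives, with adjusted p-values up to 0.136. Among those nearest to INSIG1 were NBPF3 (0.173) and the pseudogene SUCLG2P2 (0.244). NBPF3 belongs to a family of near-identical copies, so its reads are uncertain, and it went from 9.94 to 11.6 RPKM (log2 fold change 0.22, adjusted p = 0.229). SREBF1 and INSIG1 differed from each other by 0.552 on this scale. Among the 20402 tested genes, INSIG1 was at rank 97 of nearness to SREBF1, and SREBF1 at rank 151 of nearness to INSIG1. Both were called higher with GW3965, so near ranks restate this and are no separate support.

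The machinery around the 9 genes was described with 9 lists of 112 genes in all, of which 101 were tested. Of these, 6 rose, none fell and 95 did not pass the test, while 72 had a positive and 29 a negative log2 fold change. All 6 lay in the lists of SREBP target genes. The lists were drawn up from general knowledge, and whether an SREBP or an LXR acted on these genes here was not tested. Over all tested genes, 51.1% of log2 fold changes were positive.

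Among the genes that dispose of INSIG and SCAP by degradation in the endoplasmic reticulum, none of 17 passed the test, and the list's median log2 fold change was -0.01. RNF145, a ubiquitin ligase that acts on SCAP, had the highest value: it went from 8.29 ± 0.828 to 10.9 ± 0.629 RPKM (SD, n = 5) with groups that did not overlap and a log2 fold change of 0.39 (limma adjusted p = 0.115). NPLOC4, a cofactor of p97, had the lowest value (-0.09). None of the 13 genes of COPII transport passed the test either, with values from -0.12 for PREB to 0.14 for SEC24B and a median of -0.02. The 7 cofactors of SCAP and of the site-1 protease spanned -0.04 for PAQR3, which tethers SCAP and SREBP to the Golgi, to 0.18 for the chaperone HSP90B1 (adjusted p = 0.669), with a median of 0.01. The 7 tested other substrates of the site proteases spanned -0.04 for CREB3L2 to 0.14 for GNPTAB, with a median of 0.06 and no call.

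Of the 13 tested cofactors and turnover factors of nuclear SREBPs, none passed the test, and the median was 0.02. LPIN1, a phosphatidate phosphatase that also restrains SREBPs in the nucleus, was the highest with 9.17 and 11.8 RPKM (0.36, limma adjusted p = 0.0773), and FBXW7, the ubiquitin ligase that removes nuclear SREBPs, was the lowest with -0.05. The 6 tested proteins with a sterol-sensing domain besides SCAP all had positive values, from 0.05 for DISP2 to 0.22 for NPC1 (adjusted p = 0.553), with a median of 0.13. Of the 7 oxysterol enzymes only 3 were tested, from -0.03 for CYP27A1 to 0.34 for CYP39A1, and CH25H was listed at 0 in every library.

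Among the target genes on the sterol side, 1 of 22 rose, and 21 of 22 log2 fold changes were positive (median 0.14). The lowest value of this list was that of TMEM97, a cholesterol-responsive membrane protein (-0.04). On the fatty acid side, 5 of 17 rose, all 17 values were positive, and the median was 0.36. FASN, the fatty acid synthase, went from 77.1 ± 5.38 to 145 ± 3.27 RPKM (SD, n = 5; log2 fold change 0.91, limma adjusted p = 0.000108). SCD, the stearoyl-CoA desaturase, went from 204 to 365 RPKM (0.85, adjusted p = 0.00151), and ACSL3, which activates fatty acids, from 10.9 to 18.9 RPKM (0.80, adjusted p = 0.00165). The malic enzyme ME1 went from 21.2 to 29.4 RPKM (0.47, adjusted p = 0.00266) and the desaturase FADS2 from 72.4 to 93.6 RPKM (0.37, adjusted p = 0.0459). AGPAT2 had the lowest value of this list (0.02). FASN, SCD, ACSL3 and ME1 passed the test in all 21 alternatives. FADS2 lost the call in 13 of them, which included the loss of any library but DMSO library 4, with adjusted p-values of up to 0.141.

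**Figure D4:**
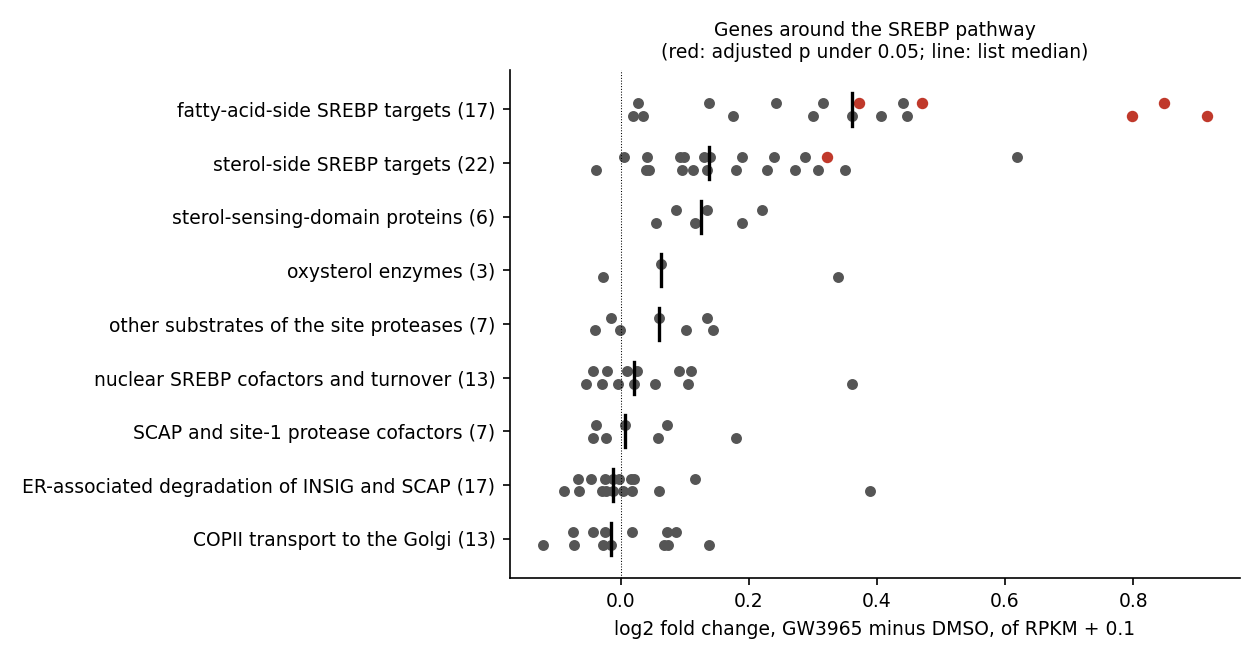
Log2 fold change of RPKM + 0.1 (GW3965 minus DMSO) of each tested gene in the 9 lists, with the number tested in brackets, the list median as a line and genes with an adjusted p below 0.05 in red. The 5 red genes on the fatty acid side reach 0.91, 1 red gene lies on the sterol side, and the other lists hold none.

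The calls of SREBF1 and INSIG1 were followed over all 21 alternatives. With the replicate number as a block, neither passed the threshold (limma adjusted p = 0.0643 for SREBF1 and 0.18 for INSIG1), and this was the only alternative in which SREBF1 lost its call. SREBF1 passed the threshold whichever library was left out, with adjusted p-values (limma, Benjamini-Hochberg) between 0.00365 and 0.019. INSIG1 did so without DMSO library 1, 4 or 5 only, and its adjusted p spanned 0.0216 to 0.105 over the losses of 1 library.

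**Figure D5:**
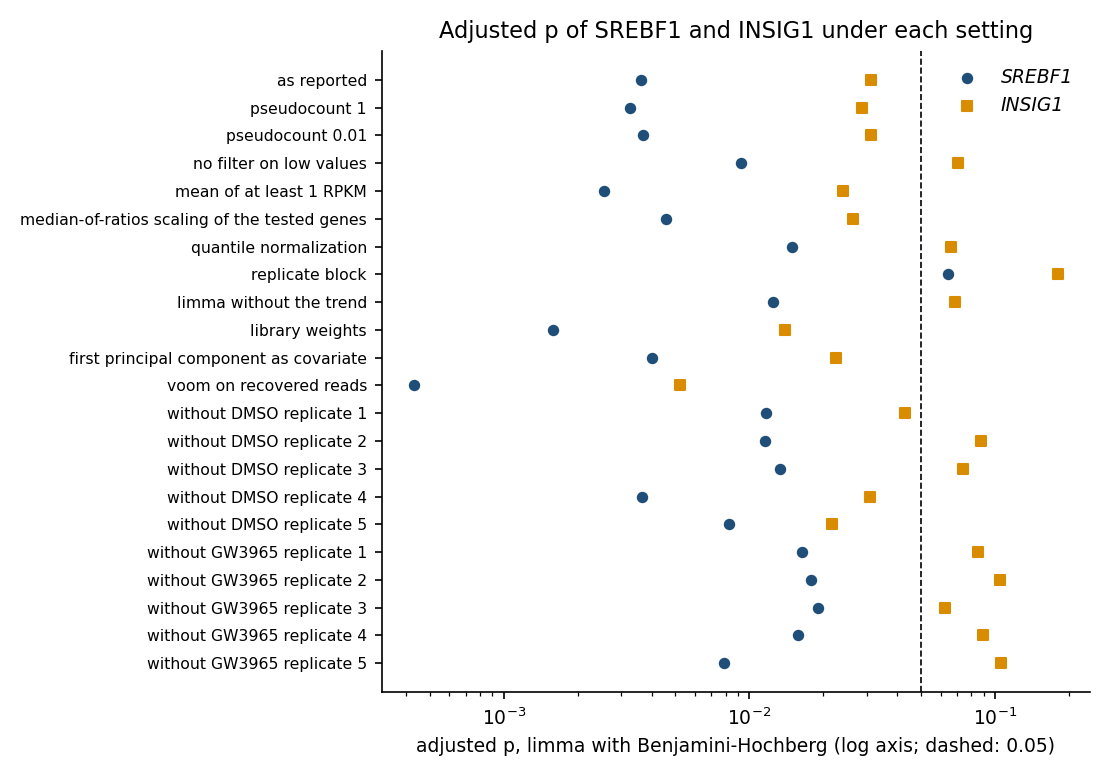
Adjusted p (limma, Benjamini-Hochberg, log axis) of SREBF1 (blue circles) and INSIG1 (orange squares) as reported, under 11 other settings and without each of the 10 libraries, with the threshold of 0.05 as a dashed line. SREBF1 lies right of the line for the replicate block alone (0.0643), and INSIG1 lies right of it without 7 of the libraries and under 4 of the other settings, the replicate block among them (0.18).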

How the data were processed

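RNA of PC3 cells was measured in 10 libraries, assigned to DMSO or GW3965 and to a replicate number by their titles. The extraction protocol describes stranded libraries of total RNA after removal of ribosomal RNA, although polyA RNA is the molecule given in the records. According to the submitters' processing notes, bcl2fastq 2.20.0.422, cutadapt, HISAT2 2.1.0, HTSeq 0.11.2, DESeq2 1.22.2 and the human build hg38 were used. The paper's methods name the mouse genome, and the gene identifiers of the table are human. The authors deposited 1 RPKM value per gene and library, with no filter stated. Ratios of these values gave whole reads for 100% of the values above 0 (tolerance 0.01 reads), and library totals were taken from these reads. For 4 genes of very high abundance and 967 with a common factor, the scale was set from GENCODE 29 lengths. The deposited library factors equalled median-of-ratios size factors up to a constant. No pair of libraries was near-identical, since the chi-square per degree of freedom was at least 6.63. Counting errors cover the counting of reads only.

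From the deposited RPKM, log2(RPKM + 0.1) was tested in 20402 genes (mean RPKM of 0.5 or more) with limma 3.58.1 in R 4.3.3 (trend of the prior variance, two-sided, Benjamini-Hochberg over all tested genes, threshold 0.05, 95% intervals). Fold changes are on that scale, which understates those of low genes. Members and their 4 ratios were also tested by exact permutation over all labellings of the libraries. In simulated data with 5 libraries per condition, 18 of 44 genes changed by 0.5 on the log2 scale were called, 43 of 52 changed by 1, and 2 of 20186 unchanged genes. The simulation gave every gene the same spread beyond counting, independent between genes, so these rates need not hold for the real libraries. The main test was not a count test, and the recovered reads were tested only with voom, as an alternative. Named were the members, list genes past the threshold or at either end of their list, ABCA1, ABCG1, the 3 genes nearest in profile to each called member, overlapping genes, hosted microRNAs and marker genes. CH25H was added after its values had been seen. Some results that this rule would name are not reported here. The members and lists were chosen with earlier results of these data known. Genome positions are from GENCODE 29 and promoters from RefSeq for 7 of 9 members. Alternatives were other pseudocounts, filters and scalings, limma without the trend, library weights, a replicate block, the first principal component as covariate, voom on the recovered reads, and the loss of each library.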

Additional observations from a re-analysis of the deposited data

Results flagged for a closer look

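Each group of 5 libraries was searched for a library far from the others, for the 9 genes and 4 ratios, 26 groups in all. Chance flags about 1 in 20 groups, or 1.3 of 26, and 2 were found. For UBXN8 in DMSO, library 1 held 0.970 RPKM and the others 1.17 to 1.25 RPKM, a gap of 0.752 of the whole range on the log2 scale against a limit of 0.71. Without this library the log2 fold change of UBXN8 was -0.22 in place of -0.16 (limma adjusted p = 0.538). For the ratio of INSIG1 to INSIG2 in DMSO, library 4 stood at 6.46 and the others at 3.998 to 4.33, a gap of 0.832 of the range. INSIG2 was lowest in this library (3.69 RPKM), and INSIG1 was highest (23.8 RPKM). Without it the difference of the log2 ratio was 0.68 in place of 0.56 (exact permutation test, adjusted p = 0.0106).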

How the results depend on the processing

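SREBF1 kept its direction and its call in 20 of 21 alternatives (log2 fold change 0.70 to 0.79). INSIG1 kept its direction in all 21 and its call in 10. Its log2 fold change was 0.52 with no filter, 0.48 after quantile normalization and 0.52 in limma without the trend, with adjusted p-values of 0.0705, 0.0665 and 0.0686, and 0.45 to 0.55 without 1 library. In these 3 settings 1 member was called higher, and 1 to 2 were without 1 library. The data did not show a pairing by replicate number. Same-numbered deviations correlated between -0.138 and 0.16, and 1 of 5 DMSO libraries matched its own number best. Such correlations cannot exclude a pairing. With the replicate block, 0 members were called (SREBF1 0.74, adjusted p = 0.0643; INSIG1 0.52, adjusted p = 0.18), and the paired ratio differences of 0.67, 0.56 and 0.54 did not pass the test, since 5 pairs allow no exact p below the threshold. Calls over all tested genes, 30 higher and 2 lower as reported, were 14 and 2 with the replicate block, 19 and 1 without the trend, 20 and 1 with no filter, 31 and 6 after quantile normalization, 54 and 2 with library weights, 73 and 10 with the first component, 60 and 5 with voom, and 17 to 37 and 0 to 2 without 1 library. Higher list genes, 6 as reported, were 4 with no filter, after quantile normalization, with the replicate block and without the trend. They were 7 with median-of-ratios scaling, 9 with library weights, 10 with the component and 12 with voom. Without 1 library they were 8 when DMSO library 4 was left out and 4 otherwise. Signs turned for members that were never called. With library weights SCAP stood at 0.022 and MBTPS1 at 0.0013. Without 1 library INSIG2 lay between -0.135 and 0.0185 (above 0 without DMSO library 1 or 3 or GW3965 library 3 or 4), SCAP between -0.0552 and 0.0216 and MBTPS1 between -0.064 and 0.013 (both above 0 without DMSO library 4). Causes were not tested. No scaling moved the median of all genes by over 0.1 on the log2 scale. For SREBF2, MBTPS2, RNF139 and UBXN8 no alternative changed direction or call. Low read numbers limit UBXN8 and the microRNA loci most.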
